A study of Homo sapiens with 18 samples.

Results

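Gene expression was compared between 48 h and 24 h after HEK293 cells had received an expression vector for RHOXF1. The comparison used 6 of the 18 arrays of the series, the 3 labelled RHOXF1 at 48 h against the 3 labelled RHOXF1 at 24 h. It covered every transcript cluster with a gene symbol, 21214 of the 33297 on the array. A transcript cluster is the set of probes that measures a gene. HEK293 is an established human embryonic kidney cell line, and all 18 samples came from it. The other arrays carried RNA from cells given an RHOXF2 expression vector or a control vector, also with 3 arrays at 24 h and 3 at 48 h each. Plasmids from OriGene were delivered transiently with a Lipofectamine reagent, so the cells of a well need not all have taken up the plasmid. The text for the control vector names pCMV6-AC-GFP, which carries GFP by name. The labels do not say whether the clones for RHOXF1 and RHOXF2 encode GFP too. The submitters call the 3 arrays of a group biological triplicates, and nothing says how the cultures were separated. The p-values and SEs therefore rest on the spread between arrays within a group, pooled over all 18 arrays.

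Both RHOXF1 and RHOXF2 are X-linked homeobox genes of the reproductive homeobox family, which encode DNA-binding transcription factors and are known mainly from germ cells, testis and placenta. HEK293 cells divide quickly, and in dividing cells ribosome assembly, proteasome production, DNA replication and mitosis take up much of the expressed genome. Quiescence genes, many of them under FOXO factors, are known for the opposite role of holding back growth. Arrays of the 24 h samples and those of the 48 h samples carry separate number series in their descriptions (all 24 h arrays in the first, all 48 h arrays in the other). Time and array series cannot be told apart. In bulk RNA, fewer cells of a kind and less RNA per cell cannot be told apart either.

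The RHOXF1 transcript itself stayed at the same high level. RHOXF1 read 12.13, 12.29 and 12.32 on the log2 scale on the 24 h arrays and 12.29, 12.27 and 12.25 on the 48 h arrays. The time ranges overlapped, and the difference was 0.02 ± 0.34 (SE, n = 3 arrays a time; limma adjusted p = 0.982). That SE is pooled over all groups, and RHOXF1 spread most on the RHOXF2 arrays at 48 h (SD 1.06). In RHOXF1 cells its SD was 0.10 at 24 h and 0.02 at 48 h. RHOXF1 lay at percentiles 98.6 to 99.1 of all named clusters on the RHOXF1 arrays and at 24.6 to 37.3 on the control arrays. On the RHOXF2 arrays it lay higher than in control cells, at percentiles 42.7 to 74.7, and read 6.94 to 9.12. The labels of the RHOXF1 arrays thus match the transfected gene at both times. Of 14 genes that mark HEK293 cells, 12 lay above the median gene (7.50) on each of the 6 arrays, among them NEFM, NEFL, MYC and VIM. PAX2 lay below it on each array (6.48 to 6.86), and STMN2 on the second 24 h array (7.23). KRT8 and STMN2 of these 14 rose, as described below. The other list held 33 measured markers of blood, endothelial, fibroblast, muscle, liver, pancreas, kidney segment and glial cells. Of these, 2 lay above the median gene on each of the 6 arrays (COL1A1 and ACTA2), and none rose or fell between the times. Their mean level ran from 5.59 to 5.63 at 24 h and from 5.57 to 5.64 at 48 h. Array medians ran from 6.75 to 6.81. Correlation between arrays, across clusters, ran from 0.9928 to 0.9960 within a time and from 0.9902 to 0.9942 between times.

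Between 24 h and 48 h, 650 clusters rose and 287 fell in RHOXF1 cells (limma, Benjamini-Hochberg adjusted p under 0.05), which is 3.06% and 1.35% of the 21214 tested and 4.42% together (with 1 cluster a gene, 4.58%). The changes were small. The median rise was 0.47 on the log2 scale (1.39-fold) and the median fall 1.34-fold, and 8 clusters changed at least 2-fold, 6 upward and 2 downward. On 648 of the 650 risen clusters and 286 of the 287 fallen ones, every 48 h array lay outside the range of the 24 h arrays. Across all clusters such a complete separation was found for 15.1% upward and 14.7% downward. It is read from the same arrays as the call and nearly follows from it. Here and for the called genes below it adds no support. With unadjusted p, 4279 clusters passed 0.05, where 1061 would pass by chance.

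Individual arrays weighed heavily on which clusters passed. Without the third 24 h array, 13 clusters passed in place of 937. Without the third 48 h array 95 passed, without the second 24 h array 162, and without the first 48 h array 164. Without the first 24 h array 722 passed, and without the second 48 h array 657. The sizes of the differences moved little. Over the 937 clusters, the median ratio to the reported difference ran from 0.95 to 1.07 across these fits. All 937 kept their sign, which nearly follows where the times are separate. Differences are given below with their arrays, and a call means the fit over all 18 arrays. The split between rises and falls also moved with scaling. With each array centred on its median, 1221 clusters passed, 426 higher and 795 lower, so that 34.9% of the calls were upward against 69.4% in the deposited scaling. That centring moved the median difference of all clusters from -0.005 to -0.069.

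A small set of genes was called in the fit over all arrays and again in each of the 6 fits that left out an array. It comprised 13 clusters, singled out after their values were seen. HSD17B8, an enzyme of mitochondrial fatty acid synthesis and steroid conversion, read 7.92, 7.70 and 7.53 at 24 h and 8.73, 8.52 and 8.63 at 48 h. It rose by 0.91 ± 0.12 (SE, n = 3; limma adjusted p = 0.0017). BLVRB, biliverdin reductase B of haem breakdown, read 7.66, 7.51 and 7.46 at 24 h and 8.21, 8.32 and 8.25 at 48 h, a rise of 0.72 ± 0.09 (limma adjusted p = 0.0017). The arrays of the times did not overlap for either gene. PLAT, tissue plasminogen activator, went from 8.58, 8.46 and 8.59 to 9.26, 9.23 and 9.25, with a difference of 0.70 ± 0.10. The claspin gene CLSPN, whose product relays replication stress to the checkpoint kinase, read 9.48, 9.52 and 9.52 at 24 h and 8.66, 8.71 and 8.70 at 48 h. Its fall of 0.82 ± 0.11 (limma adjusted p = 0.00252) was tight on both sides, while a dimmer cluster of CLSPN differed by -0.34. YPEL5 (0.76), ADGRA2 (0.72) and CACNA1H (0.57) also rose in each of these fits, and LOC646813 fell (-0.76). HSD17B8 had 3 clusters with identical values, and the remaining 3 clusters carry several symbols each and are not named.

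**Figure D1:**
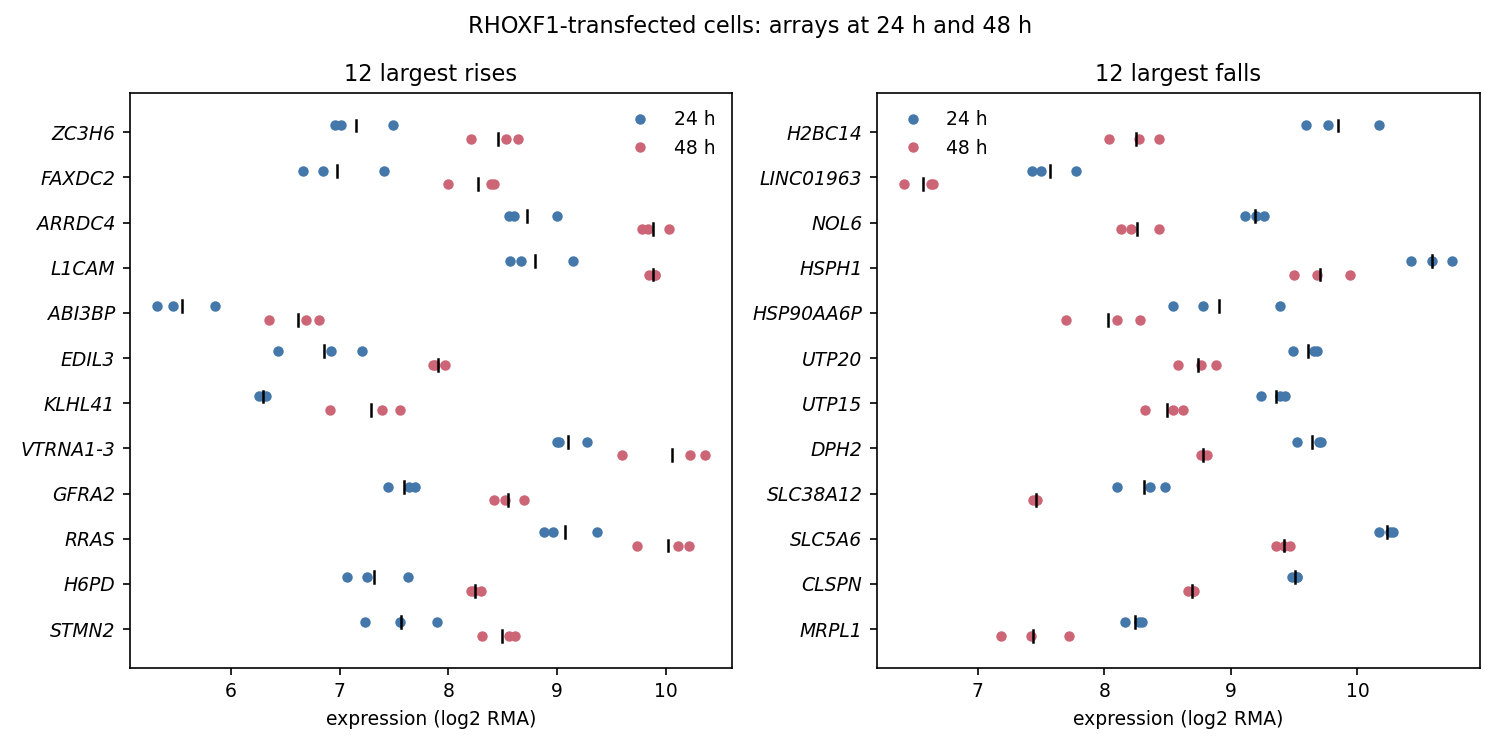
Expression (log2 RMA) on each RHOXF1 array for the 12 largest rises and the 12 largest falls among genes that passed the test with separated arrays. Each point is an array, blue at 24 h and red at 48 h, and the black bar is the mean of 3 arrays. Rises reach 1.31 for ZC3H6, and falls reach -1.60 for H2BC14.

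Among the 12 largest rises, adhesion and matrix genes stood beside metabolic and muscle genes. Only genes with separate times could enter these 12, so their separation adds no support. ZC3H6, a zinc finger protein, read 7.49, 7.01 and 6.96 at 24 h and 8.64, 8.21 and 8.53 at 48 h, and rose by 1.31 ± 0.32 (limma adjusted p = 0.0276). FAXDC2, a fatty acid hydroxylase family member, read 7.41, 6.85 and 6.66 at 24 h, a mean that rose by 1.29 ± 0.25, with 8.39 and 8.42 as the higher 48 h values and the second 48 h array below them. For both genes the first 24 h array was the highest of its time but stayed below every 48 h array. L1CAM, a neural cell adhesion molecule, read 9.15, 8.57 and 8.67 at 24 h and 9.90, 9.90 and 9.85 at 48 h (1.09 ± 0.24; limma adjusted p = 0.0181). The matrix protein genes ABI3BP and EDIL3 rose by 1.07 ± 0.24 and 1.05 ± 0.19. Levels of ABI3BP went from 5.85, 5.32 and 5.47 to 6.81, 6.35 and 6.69, and those of EDIL3 from 7.21, 6.43 and 6.92 to 7.97, 7.88 and 7.86. KLHL41, a kelch protein of muscle, had tight 24 h values of 6.30, 6.26 and 6.32 and spread over 7.56, 6.91 and 7.39 at 48 h (0.99 ± 0.19). The small vault RNA VTRNA1-3 rose by 0.96 ± 0.21, with 9.60 on the first 48 h array against 10.36 and 10.22 on the others. GFRA2, a co-receptor for neurturin, a ligand of the GDNF family, rose by 0.95 ± 0.18, RRAS, a Ras-like GTPase that acts on integrins, by 0.95 ± 0.19, and H6PD, which makes NADPH inside the endoplasmic reticulum, by 0.93 ± 0.18. STMN2, a neuronal regulator of microtubules, rose from 7.90, 7.23 and 7.56 to 8.61, 8.56 and 8.31 (0.93 ± 0.16; limma adjusted p = 0.0078). None of these 12 genes was still called without the third 24 h array.

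ARRDC4 was the third largest rise and led the genes of quiescence and FOXO control, which curb growth and glucose uptake. This arrestin-domain gene is a paralogue of TXNIP, and both are known to be induced by the glucose-sensing factors MondoA and ChREBP, which bind E-box sequences. ARRDC4 read 9.00, 8.56 and 8.60 at 24 h and 10.03, 9.78 and 9.84 at 48 h, a rise of 1.17 ± 0.21 (limma adjusted p = 0.0078). Its 250 bases before the annotated start are printed because they hold the E-box CACGTG, in capitals, 210 bases before the start (RefSeq, GRCh38.p14, chr15:97960453-97960702, plus strand, 5′ to 3′).
ARRDC4: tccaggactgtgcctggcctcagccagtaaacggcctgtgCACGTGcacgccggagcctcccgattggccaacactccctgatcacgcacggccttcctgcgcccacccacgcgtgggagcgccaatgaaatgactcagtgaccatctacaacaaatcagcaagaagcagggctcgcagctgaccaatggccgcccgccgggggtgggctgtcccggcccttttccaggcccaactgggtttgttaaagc
A match is a description of these letters and not a bound site. The motif stood in 5.82% of the promoters of risen genes (27 of 464 with a promoter in the RefSeq table), against 7.86% of the promoters of all measured genes and 6.49% of all 27305 promoters in it. CACGTG reads alike on both strands.

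Of 25 measured genes of the FOXO and quiescence list, 7 rose and none fell, with a median difference of 0.24 and 24 positive differences. Over all genes with 1 cluster each, 3.19% rose and 1.38% fell, and the median was -0.01. The list's mean level read 8.23, 8.15 and 8.13 at 24 h and 8.54, 8.43 and 8.48 at 48 h, without overlap. TXNIP, which blocks glucose uptake and thioredoxin, went from 9.50, 9.22 and 9.39 to 10.37, 10.00 and 10.21 (0.83 ± 0.17; limma adjusted p = 0.0146). YPEL5, a yippee family protein, went from 8.86, 8.63 and 8.76 to 9.52, 9.45 and 9.57 (0.76 ± 0.11; limma adjusted p = 0.00479). The stress-responsive inhibitor of mTORC1 SESN3 rose by 0.36 ± 0.08. The other 3 that rose, named after their values were seen, were HBP1, a repressor of cell cycle entry (0.48), the PI3-kinase inhibitor PIK3IP1 (0.47) and YPEL2 (0.43). Leaving out an array gave 1 to 6 calls in the list, the fewest without the third 24 h array, while the median stayed between 0.22 and 0.27.

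Ribosome biogenesis genes formed the list with the largest share of falls. Of 40 measured genes for rRNA transcription, processing and subunit assembly, 9 fell and none rose, which is 22.5% against 1.38% of all genes. The list was bright (median level 10.08), and of genes above the median level 2.46% fell. The same share applies to the mitochondrial ribosome, proteasome, heat shock and G2/M lists below, with median levels from 9.78 to 10.43. The median difference was -0.27 and 37 differences were negative. The mean of the list read 10.25, 10.31 and 10.32 at 24 h and 10.00, 10.02 and 9.93 at 48 h, so that no array of one time reached the other. UTP20 and UTP15 belong to the small-subunit processome, which cleaves and folds pre-rRNA. UTP20 read 9.49, 9.68 and 9.66 and then 8.76, 8.88 and 8.58 (-0.87 ± 0.14; limma adjusted p = 0.00711). UTP15 read 9.24, 9.39 and 9.43 and then 8.54, 8.62 and 8.32 (-0.86 ± 0.17; limma adjusted p = 0.0118). POLR1A, the largest subunit of RNA polymerase I, went from 10.13, 10.18 and 10.21 to 9.65, 9.67 and 9.52 (-0.56 ± 0.10). For all of them the times were separate. PNO1, a 40S assembly factor, fell by 0.71 ± 0.16 on the log2 scale. RRS1 (-0.56), RRP12 (-0.55), LYAR (-0.52), HEATR1 (-0.35) and NOC3L (-0.29) made up the rest. NOL6, a further nucleolar protein of the processome that was outside the list, was the third largest fall of all genes, from 9.11, 9.26 and 9.20 to 8.21, 8.43 and 8.13 (-0.93 ± 0.17; limma adjusted p = 0.0092). Leaving out an array gave 0 to 8 falls in the list, none without the third 24 h array, with medians from -0.29 to -0.24, and centring gave 16 with a median of -0.34.

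UTP20's promoter is shown because its last bases hold a CACGTG, the E-box that MYC and related factors are known to bind in many growth genes (RefSeq, GRCh38.p14, chr12:101279855-101280104, plus strand, 5′ to 3′, motif in capitals, 10 bases before the start).
UTP20: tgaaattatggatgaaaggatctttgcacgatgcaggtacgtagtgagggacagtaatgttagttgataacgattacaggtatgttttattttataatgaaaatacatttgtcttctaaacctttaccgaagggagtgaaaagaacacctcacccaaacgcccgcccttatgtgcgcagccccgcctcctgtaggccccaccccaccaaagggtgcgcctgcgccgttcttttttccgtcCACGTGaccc
CACGTG stood in 15.4% of the promoters of fallen genes (32 of 208), against 7.86% of those of measured genes. Of the 255 fallen genes, 229 lay above the median level. No motif share was taken over equally bright genes, so whether this share goes with level was not tested. Within the ribosome biogenesis list it stood in 8.82% (3 of 34). MYC itself differed by -0.11 between the times and did not pass (limma adjusted p = 0.494).

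The structural proteins of the ribosome were listed apart from its assembly factors. Of 65 cytosolic ribosomal protein genes, 2 rose (3.08%, all genes 3.19%), none fell, and the median difference was 0.12. RPL13 read 11.22, 11.27 and 10.93 at 24 h and 11.47, 11.63 and 11.66 at 48 h (0.45 ± 0.11; limma adjusted p = 0.0316). RPS9 read 12.02, 12.02 and 11.71 and then 12.27, 12.29 and 12.24 (0.35 ± 0.08; limma adjusted p = 0.0288). For both, the third 24 h array was the lowest. The list's mean was 11.33 on that array against 11.47 and 11.46 on the other 24 h arrays, and without it the median was 0.07 with no call. Probes of ribosomal protein genes can also read their many pseudogenes. With median centring none rose and 1 fell. Of the mitochondrial ribosomal protein genes, 3 of 73 fell (4.11%, all genes 1.38%, genes above the median level 2.46%), none rose and the median was -0.10. MRPL1 fell by 0.81 ± 0.17, MRPS18C from 5.61, 5.84 and 5.90 to 5.21, 4.98 and 5.13 (-0.68 ± 0.13; limma adjusted p = 0.00901), and MRPL20 by 0.40 ± 0.11. In the respiratory chain and ATP synthase, 1 of 76 genes fell (1.32%, all genes 1.38%), NDUFA5 (-0.42 ± 0.11). The median of -0.02 became positive under quantile or loess scaling (0.02 and 0.01).

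**Figure D2:**
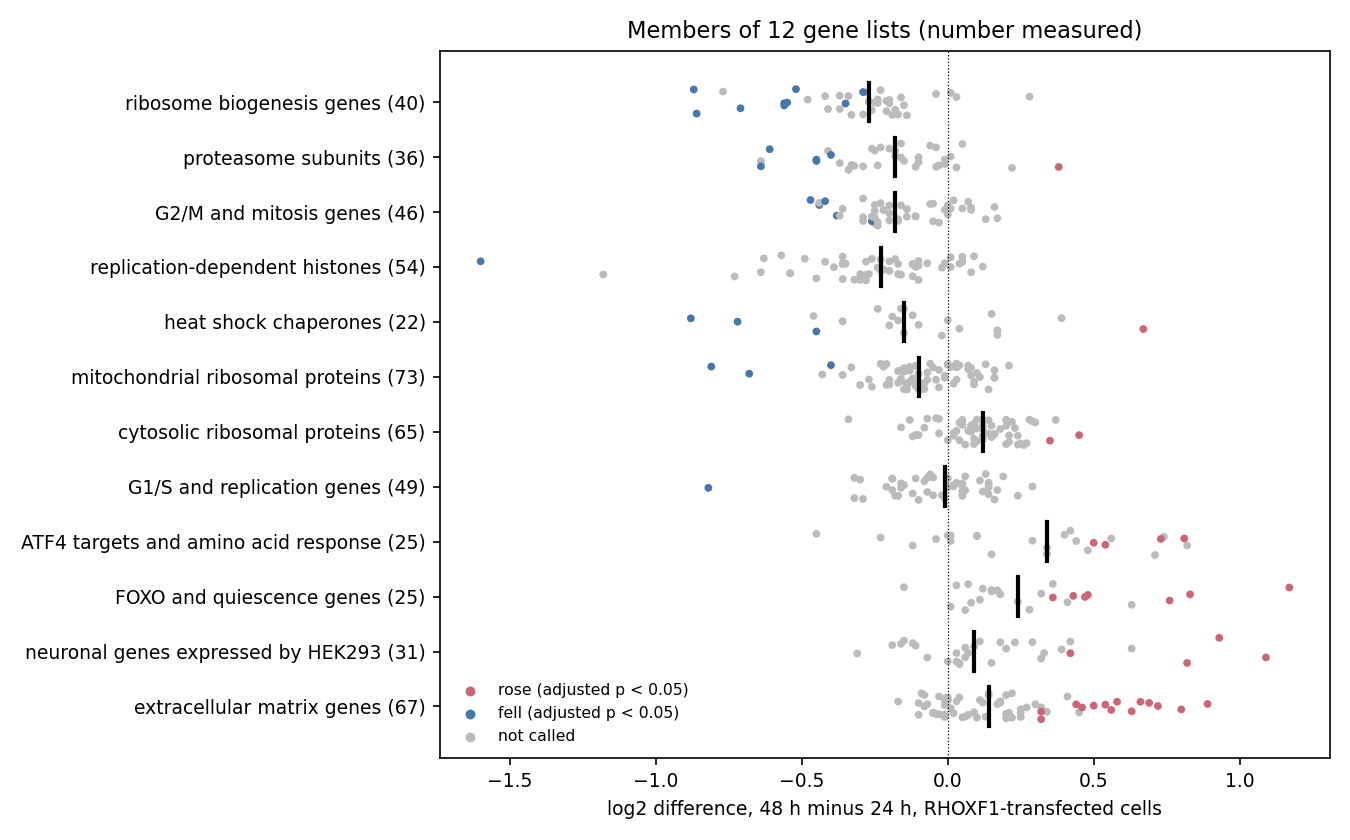
Log2 difference (48 h minus 24 h) in RHOXF1 cells of each measured member of 12 gene lists, with the number measured in brackets. Points are genes, red where they rose, blue where they fell and grey where they did not pass; the bar is the list's median. Ribosome biogenesis genes have a median of -0.27, and FOXO and quiescence genes a median of 0.24.

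The proteasome degrades ubiquitinated proteins. Of its 36 subunit genes, 5 fell (13.9%, all genes 1.38%) and 1 rose (2.78%, all genes 3.19%), with a median of -0.18 and 31 negative differences. PSMD1, a scaffold of the regulatory particle that recognises ubiquitinated proteins, read 10.70, 10.69 and 10.71 at 24 h and 10.10, 10.05 and 10.03 at 48 h (-0.64 ± 0.13; limma adjusted p = 0.0123). PSMD11, of the same particle, read 10.98, 10.98 and 10.95 and then 10.37, 10.35 and 10.36 (-0.61 ± 0.12). Within a time these arrays lay close together. PSMA3 of the core particle fell by 0.45 ± 0.09, PSMD6 by 0.40 ± 0.10, and PSMD12, named after its value was seen, by 0.45 ± 0.12. PSMB8, an immunoproteasome subunit and likewise named afterwards, rose by 0.38 ± 0.10. The list's mean fell from 9.68, 9.70 and 9.64 to 9.48, 9.49 and 9.45. Leaving out an array gave 0 to 4 falls, none without the third array of either time, and centring gave 11.

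Heat shock chaperones contained both directions. Of 22 measured members, 3 fell (13.6%, all genes 1.38%) and 1 rose (4.55%, all genes 3.19%), and the median was -0.15 with 16 negative differences. HSPH1, the HSP110 partner of HSP70, read 10.42, 10.75 and 10.59 at 24 h and 9.68, 9.94 and 9.50 at 48 h (-0.88 ± 0.15; limma adjusted p = 0.0078). CHORDC1, a co-chaperone of HSP90, read 9.15, 9.52 and 9.69 and then 8.78, 8.65 and 8.78 (-0.72 ± 0.14; limma adjusted p = 0.0108). HSPA4, a relative of HSPH1, read 10.70, 10.86 and 10.75 and then 10.36, 10.34 and 10.25 (-0.45 ± 0.10). In each, the lowest 24 h array lay above the highest 48 h array, which for HSPH1 was a condition of entry to the 12 largest falls. HSPB8, a small heat shock protein that works with BAG3, rose from 6.38, 6.45 and 6.58 to 7.19, 7.17 and 7.05 (0.67 ± 0.14; limma adjusted p = 0.0135). The inducible HSP70 genes HSPA1A and HSPA1B share all their clusters, so neither can be read on its own. The 5 shared clusters fell by 0.39 to 0.49 on the log2 scale (limma adjusted p from 0.024 to 0.038). HSP90AA6P, an HSP90 pseudogene among the 12 largest falls, went from 9.39, 8.78 and 8.54 to 8.10, 8.28 and 7.70 (-0.87 ± 0.21), and its probes may read other HSP90 transcripts. Leaving out an array gave 0 to 3 falls in the list, none without the third array of either time.

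Heat shock factor HSF1 is known to bind inverted GAA repeats, and the promoter of CHORDC1 is shown because it holds GAANNTTC at 3 places, in capitals, 205, 60 and 50 bases before the start (RefSeq, GRCh38.p14, chr11:90223050-90223299, minus strand, 5′ to 3′).
CHORDC1: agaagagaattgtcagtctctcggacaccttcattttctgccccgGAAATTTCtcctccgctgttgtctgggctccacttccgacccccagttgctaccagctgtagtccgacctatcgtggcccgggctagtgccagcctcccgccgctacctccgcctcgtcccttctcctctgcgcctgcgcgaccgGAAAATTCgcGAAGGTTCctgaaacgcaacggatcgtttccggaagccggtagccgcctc
GAANNTTC reads alike on both strands. It stood in 40% of the promoters of the heat shock list (8 of 20), 4.66% of those of measured genes and 3.85% of those of fallen genes.

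Genes of mitosis and of replication were listed separately. Of 46 measured G2/M and mitosis genes, 5 fell (10.9%, all genes 1.38%), none rose, and 35 differences were negative with a median of -0.18. BUB1, a spindle checkpoint kinase, read 10.75, 10.67 and 10.68 at 24 h and 10.27, 10.31 and 10.18 at 48 h (-0.44 ± 0.10; limma adjusted p = 0.0179). CCNB1, cyclin B1 of mitotic entry, read 10.43, 10.32 and 10.53 and then 9.89, 10.05 and 9.92 (-0.47 ± 0.11; limma adjusted p = 0.0262). Neither gene's times overlapped. DLGAP5, a spindle protein, fell by 0.42 ± 0.09, ECT2, which starts cytokinesis, by 0.38 ± 0.09, and the cyclin gene CCNA2, named after its value was seen, by 0.26. The list's mean went from 10.21, 10.16 and 10.20 to 10.06, 10.04 and 10.00. Without the third 24 h array, the first 48 h array or the third 48 h array, none of the list passed.

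The promoter of CCNB1 is printed because the CCAAT box, bound by the factor NF-Y, is a known feature of mitotic genes (RefSeq, GRCh38.p14, chr5:69166900-69167149, plus strand, 5′ to 3′). Its CCAAT boxes, in capitals, lie 87 and 55 bases before the start.
CCNB1: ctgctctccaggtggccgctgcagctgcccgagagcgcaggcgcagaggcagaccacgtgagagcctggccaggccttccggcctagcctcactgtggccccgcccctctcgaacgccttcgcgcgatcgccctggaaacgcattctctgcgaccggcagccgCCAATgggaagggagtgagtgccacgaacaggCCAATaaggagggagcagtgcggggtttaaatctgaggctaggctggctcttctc
CCAAT on either strand stood in 76.3% of the promoters of this list (29 of 38), against 34.4% of measured genes, 38.5% of fallen genes and 28% of risen genes. Among the FOXO and quiescence genes, of which 7 rose and none fell, it stood in 54.5% (12 of 22).

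Among 49 G1/S and replication genes, CLSPN alone fell (2.04%, all genes 1.38%) and none rose. The median of -0.01 became 0.04 under repeated quantile and 0.03 under cyclic loess scaling. Replication-dependent histone genes, whose messages are made in S phase, had 46 negative differences of 54 and a median of -0.23. Of them 1 fell (1.85%, all genes 1.38%), H2BC14. It showed the largest change of all called clusters, from 9.77, 9.59 and 10.17 to 8.04, 8.43 and 8.27 (-1.60 ± 0.43, 3.03-fold; limma adjusted p = 0.044). Its times were far apart, yet the call was lost in 6 of 6 fits without an array and under robust settings. H2BC7 differed by -0.73 ± 0.21 (limma adjusted p = 0.0576) and H1-1 by -0.54 ± 0.16 (limma adjusted p = 0.0645), neither of which passed. With only the 6 RHOXF1 arrays in the fit, 13 histone genes fell.

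The remaining large falls had mixed roles. LINC01963, a long non-coding RNA, read 7.43, 7.50 and 7.78 and then 6.42, 6.63 and 6.65, and fell (limma adjusted p = 0.00711). DPH2, which starts the diphthamide modification of elongation factor 2, read 9.52, 9.70 and 9.71 and then 8.76, 8.81 and 8.78 (-0.86 ± 0.15). SLC5A6, the carrier of biotin and pantothenate, read 10.17, 10.26 and 10.28 and then 9.42, 9.47 and 9.36 (-0.82 ± 0.15). SLC38A12 fell by 0.85 ± 0.18, with 7.47, 7.44 and 7.46 at 48 h. For these genes, too, the times were separate on every array.

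Extracellular matrix genes hold cells in place and give them their substrate. A list of 67 of them was added after the values were seen, so its count describes the data and carries no weight of its own. Of its members 14 rose (20.9%, all genes 3.19%) and none fell, with a median of 0.14. Most of the 14 encode basement membrane proteins, the sheet to which epithelial cells attach. They are the laminin chains LAMA1 (0.50), LAMA5 (0.44), LAMB1 (0.46), LAMB2 (0.54) and LAMC3 (0.32), the nidogens NID1 (0.66) and NID2 (0.80), the proteoglycans HSPG2 (0.72) and AGRN (0.32), the collagens COL6A1 (0.63) and COL14A1 (0.56), the fibulins EFEMP1 (0.69) and EFEMP2 (0.58), and FN1, fibronectin (0.89). HSPG2, perlecan, was the tightest, at 8.31, 8.37 and 8.35 and then 9.05, 9.08 and 9.06 (limma adjusted p = 0.00875). NID2 read 8.75, 8.54 and 8.31 and then 9.49, 9.13 and 9.36 (limma adjusted p = 0.0078), and EFEMP1 6.44, 6.30 and 6.17 and then 7.16, 6.86 and 6.96 (limma adjusted p = 0.00711). Arrays of the times were separate in each. Without the third 24 h array none of the list passed, and without the other arrays 3 to 13 did. The fibroblast collagens did not pass: COL1A1 differed by 0.14, COL1A2 by -0.10 and COL3A1 by 0.32 (limma adjusted p = 0.0566).

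Epithelial and neuronal genes were examined as lists of their own. Of 26 genes of epithelial junctions and of the epithelial to mesenchymal transition, 4 rose (15.4%, all genes 3.19%) and none fell. The largest of these rises was that of FN1, a marker of the mesenchymal state, from 8.31, 8.06 and 8.16 to 9.24, 8.84 and 9.12 (0.89 ± 0.18; limma adjusted p = 0.0145). CDH1, E-cadherin, read 5.96, 6.04 and 5.72 and then 6.60, 6.30 and 6.46 (0.55 ± 0.11; limma adjusted p = 0.0108). KRT8, a keratin of simple epithelia, read 9.03, 8.72 and 8.95 and then 9.53, 9.73 and 9.41 (0.66 ± 0.16), and CLDN7, a tight junction claudin, rose by 0.42 ± 0.11. The 48 h arrays lay above all 24 h arrays for each. Of 31 neuronal genes expressed by HEK293 cells 4 rose (12.9%, all genes 3.19%) and none fell, namely L1CAM, STMN2, NCAM1 and CAMK2N1. NCAM1, a neural adhesion molecule, read 7.59, 7.31 and 7.51 and then 8.29, 8.42 and 8.17 (0.82 ± 0.15; limma adjusted p = 0.00913). CAMK2N1, an inhibitor of the calcium-dependent kinase CaMKII, rose by 0.42 ± 0.10. Medians of these lists were 0.11 and 0.09.

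Targets of YAP and TEAD, factors that respond to cell shape and contact, rose in 3 of 24 cases (12.5%, all genes 3.19%) and fell in none, with a median of 0.11. RBMS3 rose by 0.76 ± 0.16, the growth factor gene TGFB2 by 0.57 ± 0.13 and ARHGEF17 by 0.45 ± 0.11. TGFB2 read 7.75, 7.70 and 7.76 and then 8.29, 8.42 and 8.20. AMOTL2 (0.39 ± 0.12; limma adjusted p = 0.0724) did not pass.

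Stress genes controlled by ATF4, the factor of the amino acid and integrated stress response, were higher on 2 of the 3 arrays at 48 h. Their mean level over 25 genes read 9.27, 9.12 and 9.11 at 24 h and 9.57, 9.12 and 9.73 at 48 h, so the second 48 h array stayed within the 24 h range. Of the 25 genes 4 rose (16%, all genes 3.19%) and none fell, with a median of 0.34. DDIT3, the stress factor CHOP, read 7.23, 7.05 and 7.01 and then 8.14, 7.36 and 8.21 (0.81 ± 0.21; limma adjusted p = 0.0379). VLDLR, a lipoprotein receptor, read 6.39, 6.22 and 6.06 and then 6.98, 6.83 and 7.04 (0.73 ± 0.15; limma adjusted p = 0.0142). ATF3 rose by 0.54 ± 0.13 and TRIB3, an inhibitor of AKT, by 0.50 ± 0.14. Without the second 48 h array the median was 0.56 and 8 genes rose. Without any single one of the other arrays 0 to 2 did. The same array was low for HERPUD1 of the unfolded protein response, which read 10.24, 9.39 and 10.27 at 48 h against 9.54, 9.44 and 9.35 at 24 h (0.52 ± 0.19; limma adjusted p = 0.126), and for WIPI1 below. Of 19 genes of the endoplasmic reticulum response none passed, and the median was -0.07, with DNAJB11 at -0.36 ± 0.12 (limma adjusted p = 0.0892), HYOU1 at -0.33 ± 0.11 and CALR at -0.24 ± 0.11.

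Lysosome and autophagy genes moved both ways. Of 37 genes 3 rose (8.11%, all genes 3.19%) and 1 fell (2.7%, all genes 1.38%). The median of 0.04 is within the shift that median centring gives all clusters. WIPI1, which binds forming autophagosomes, read 7.78, 7.53 and 7.64 and then 8.73, 8.04 and 8.60 (0.80 ± 0.17; limma adjusted p = 0.015). The protease gene CTSB went from 9.74, 9.56 and 9.60 to 10.18, 10.10 and 10.08 (0.49 ± 0.09; limma adjusted p = 0.00876), and GAA, which breaks down lysosomal glycogen, rose by 0.50 ± 0.12. CTSA, a protective lysosomal protease, fell from 11.18, 11.26 and 11.25 to 10.87, 10.82 and 10.88 (-0.38 ± 0.10; limma adjusted p = 0.0426). In cholesterol and fatty acid synthesis, the regulator SREBF2 rose (0.27 ± 0.07; limma adjusted p = 0.04) and the sterol enzyme NSDHL fell (-0.43 ± 0.11; limma adjusted p = 0.0412), while the median of 26 genes was -0.12. Each of these calls was 3.85% of the list, where 3.19% of all genes rose and 1.38% fell. DHCR7 (-0.37 ± 0.11) and IDI1 (-0.38 ± 0.13) did not pass.

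Other stress lists held few calls. GCLM, which helps make glutathione, was the single fall among 18 oxidative stress genes (-0.46 ± 0.11; limma adjusted p = 0.0262), with a median of -0.11. That fall made up 5.56% of the list, against 1.38% of all genes. NQO1 (-0.32 ± 0.11), TXNRD1 (-0.31 ± 0.12) and GCLC (-0.29 ± 0.11) did not pass. Metallothioneins bind zinc and copper, and their list also included SLC30A1, a zinc exporter gene. All 11 measured genes of the list had negative differences with a median of -0.33, and none passed. MT1F read 8.62, 8.04 and 8.41 and then 7.56, 7.96 and 7.69 (-0.62 ± 0.19; limma adjusted p = 0.0743), and SLC30A1 differed by -0.42 ± 0.12 (limma adjusted p = 0.0597). Of 22 p53 targets 1 rose (4.55%, all genes 3.19%), DDB2 of DNA repair (0.52 ± 0.14, limma adjusted p = 0.0379). BAX (-0.43 ± 0.12; limma adjusted p = 0.0509, and 0.0141 to 0.193 over its alternatives) was called in 6 of 16 alternatives. TIGAR (-0.76 ± 0.22; limma adjusted p = 0.0528, and 0.0113 to 0.208) was called in 9 of 16, and neither passed with the settings used here. MDM2 differed by -0.24. Of 30 interferon-stimulated genes IFI27 (0.45 ± 0.11) and IFI44L (0.61 ± 0.16) rose, and of 19 NF-kappa-B targets NFKB2 did (0.52 ± 0.10; limma adjusted p = 0.0123). The shares that rose were 6.67% and 5.26%, against 3.19% of all genes. The medians of these lists were -0.02 and 0.04, and both were within the shifts that scaling gives all clusters. In the immediate early list ATF3 rose alone among 24 genes (4.17%, all genes 3.19%), and the median was 0.02, within the shift of median centring. None of 30 glycolysis and hypoxia genes passed; NDRG1 read 11.41, 10.79 and 10.64 and then 11.69, 11.71 and 11.56 (0.71 ± 0.33; limma adjusted p = 0.24).

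Small non-coding RNAs were measured by clusters of their own. Of 115 C/D box snoRNA genes, guides of rRNA methylation, SNORD104 rose (0.57 ± 0.16; limma adjusted p = 0.0476) and SNORD75 fell (-0.76 ± 0.18; limma adjusted p = 0.0241). SNORD75 read 9.27, 9.38 and 9.39 and then 8.47, 8.83 and 8.47. Rises and falls were each 0.87% of the list, against 3.19% and 1.38% of all genes. Of 77 H/ACA box and Cajal body RNAs, guides of pseudouridylation, SCARNA22 rose, from 7.73, 8.13 and 7.51 to 8.27, 8.58 and 8.55 (0.67 ± 0.17; limma adjusted p = 0.0295). The mean of that list was highest on the second array of each time, 7.84 against 7.52 and 7.47 at 24 h and 8.13 against 7.60 and 7.73 at 48 h. The second array was also the highest of each time in RHOXF2 and in control cells. With the replicate number as a block, 7 genes of the list rose. Its median of 0.15 became 0.01 without the second 48 h array. VTRNA1-3 was the single rise among 31 spliceosomal and other small RNAs (3.23%), and SCARNA22 that of its own list (1.3%). Of 171 microRNA precursor genes 1 fell (0.585%, all genes 1.38%). It was MIR34B (-0.36 ± 0.09, limma adjusted p = 0.032), from 4.35, 4.45 and 4.27 to 4.02, 3.86 and 4.11.

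Germ cell, testis and placental genes belong to tissues where RHOX factors are known to act. Of 46 germ cell and meiosis genes 1 rose (2.17%, all genes 3.19%), ZP3 of the egg coat, from 7.87, 7.29 and 7.42 to 8.44, 8.14 and 8.57 (0.86 ± 0.18; limma adjusted p = 0.0157). DDX4, a germ cell RNA helicase, read 3.95, 4.20 and 4.12 and then 3.89, 3.72 and 3.74 (-0.31 ± 0.09; limma adjusted p = 0.062). None of 23 Sertoli and Leydig cell genes passed, among them the netrin receptor UNC5A (0.38 ± 0.12; limma adjusted p = 0.0624) and the steroid enzyme CYP17A1 (-0.24 ± 0.10). Of 18 placental genes 2 rose (11.1%, all genes 3.19%) and none fell. PAPPA, a protease that frees insulin-like growth factors, read 6.77, 6.59 and 6.56 and then 7.15, 7.10 and 7.21 (0.52 ± 0.11; limma adjusted p = 0.0142), and the trophoblast factor gene TFAP2C read 6.61, 6.44 and 6.47 and then 7.10, 6.92 and 6.97 (0.49 ± 0.10; limma adjusted p = 0.0135). The medians of these lists, -0.01, -0.02 and 0.03, changed sign with scaling. None of 27 HOX genes passed, with differences from -0.21 to 0.34.

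Genes that HEK293 cells are not known to use were counted beside all dim genes. The falls in their lists rest on 1 or 2 genes, too few to compare shares of falls. Of 360 olfactory receptor genes 2 fell (0.556%), OR10A4 (-0.30 ± 0.08) and OR10D1P (-0.43 ± 0.11), and none rose. Of 67 keratin-associated protein genes 1 fell (1.49%), KRTAP5-5 (-0.52 ± 0.14), and none rose. The calls of OR10A4 and OR10D1P were each lost in 7 of 15 alternative fits, and that of KRTAP5-5 in 6 of 15. Medians were -0.06 and -0.10. Of all genes at or below the median level 2.19% rose and 0.285% fell (2.48% together), and of those above it 4.17% rose and 2.46% fell (6.64% together).

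Whether the change over time was particular to RHOXF1 cells was tested against the cells with the control vector, which cross the same 2 array series. No cluster passed for the difference between the time changes (limma, smallest adjusted p = 0.95). With unadjusted p 998 clusters passed 0.05, where 1061 would by chance, and the other settings of the fit also gave none, except that ZFP14 passed without the first RHOXF1 array at 48 h. On that array ZFP14, a zinc finger protein, read 5.51 against 4.93 and 4.95 on the other 48 h arrays and 5.27, 5.24 and 5.45 at 24 h. Its time change was -0.19 in RHOXF1 cells and 0.60 in control cells, a difference of -0.79 ± 0.17 (limma adjusted p = 0.95), and -0.98 without that array (limma adjusted p = 0.0128). ADAM20P1, an ADAM pseudogene, read 4.21, 4.05 and 4.10 and then 4.38, 4.04 and 3.98 in RHOXF1 cells, while in control cells it differed by 0.97. That difference of -0.95 ± 0.20 did not pass (limma adjusted p = 0.95). In the other direction CCDC88C (0.58 ± 0.13), WFDC8 (0.54 ± 0.12) and BHLHA9 (0.70 ± 0.16) had the smallest p, and TLE2 differed by -0.39 ± 0.10. None of these passed, which does not show that the cells changed alike.

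**Figure D3:**
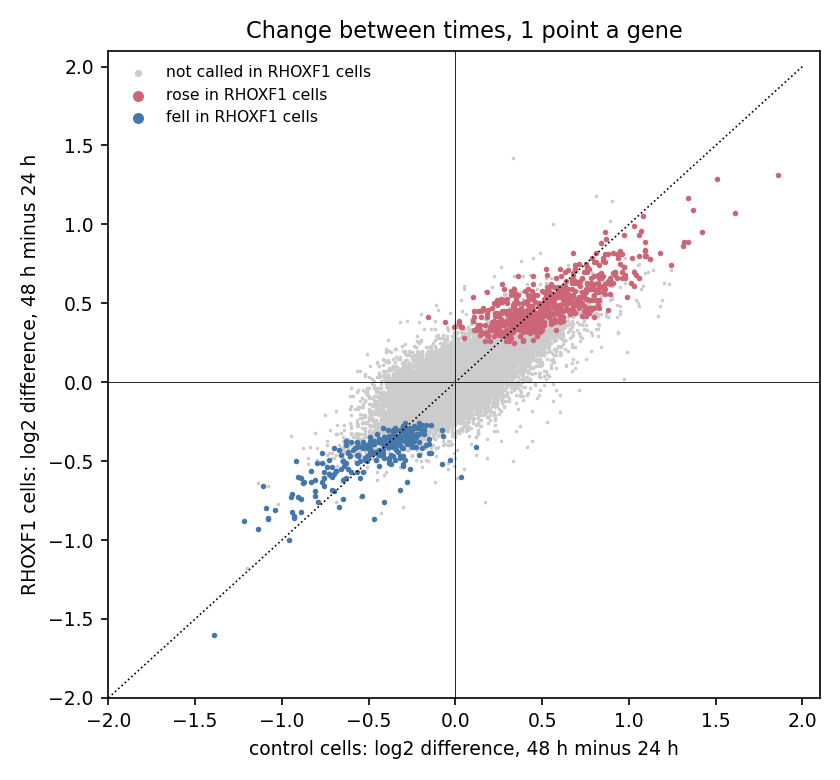
Log2 difference between the times in RHOXF1 cells (vertical) against that in control cells (horizontal), 1 point a gene, for 18417 genes. Red points rose and blue points fell in RHOXF1 cells, grey points did not pass, and the dotted line marks equal change. Nearly all called genes lie in the upper right and lower left (645 of 650 risen and 285 of 287 fallen clusters had the same sign in control cells), and 0 clusters were called with opposite signs.

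RHOXF1 and control cells share no array, though each time shares its array series. Both comparisons also use the same pooled spread of each cluster, so their calls are not independent. The same holds for RHOXF2 cells. Of the 650 clusters that rose in RHOXF1 cells 545 also rose in control cells, which is 83.8% of the former and 26% of the latter. Of the 287 that fell 227 also fell there (79.1% and 13.6%), and none was called the opposite way. Control cells gave 3772 calls, 17.8% of the clusters (9.89% higher and 7.89% lower), and the median size of the difference over all clusters was 0.153 there against 0.108 in RHOXF1 cells. For the ribosome biogenesis list the medians were -0.27 in RHOXF1 and -0.35 in control cells, for proteasome subunits -0.18 and -0.32, and for FOXO and quiescence genes 0.24 and 0.31. For G2/M genes they were -0.18 and -0.06. No gene passed the test of the difference, so none of these lists was shown to differ.

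**Figure D4:**
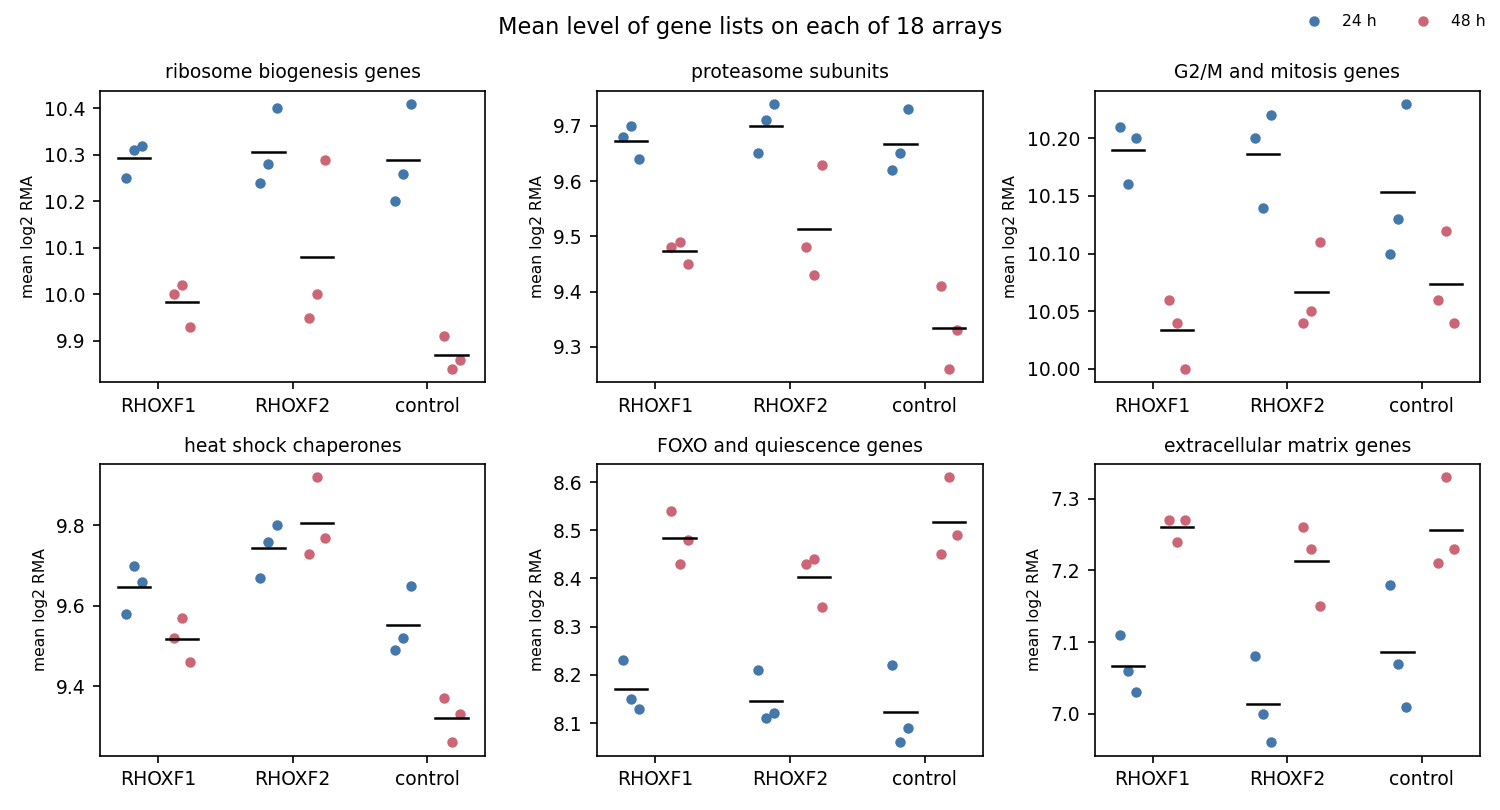
Mean log2 RMA level of 6 gene lists on each of the 18 arrays, by vector, blue at 24 h and red at 48 h, with bars at the mean of 3 arrays. In RHOXF1 cells the 24 h and 48 h arrays are apart in all 6 panels, and ribosome biogenesis genes go from between 10.25 and 10.32 to between 9.93 and 10.02.

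Against RHOXF2 cells, no cluster passed either (limma, smallest adjusted p = 0.0581; 373 clusters with unadjusted p under 0.05). The smallest p belonged to ANKRD1, a muscle ankyrin repeat protein and YAP target. In RHOXF1 cells ANKRD1 read 5.45, 5.71 and 5.78 and then 5.43, 5.72 and 5.57 (-0.07 ± 0.20), while in RHOXF2 cells it differed by 1.79. The difference of the changes was -1.87 ± 0.28. It passed in 5 alternative fits and ran from -2.13 to -1.60 (limma adjusted p from 0.00172 to 0.631). RFPL4A, of a family of RING finger protein genes, differed by 0.32 ± 0.12 in RHOXF1 cells against 1.08 in RHOXF2 cells (difference -0.76). CCL16, a chemokine, fell in RHOXF1 cells, from 5.00, 4.80 and 4.99 to 4.61, 4.62 and 4.53 (-0.34 ± 0.09; limma adjusted p = 0.0326), and differed by 0.20 in RHOXF2 cells (difference -0.54). The smallest p among positive differences belonged to PXT1 (0.46), CFAP144P1 (0.58) and GCSAM (0.34), and none of them passed. RHOXF2 cells gave 264 calls, 1.24% of the clusters (0.985% higher and 0.259% lower). Of the 209 clusters that rose there 158 also rose in RHOXF1 cells (75.6% of the former and 24.3% of the RHOXF1 rises), and of 55 that fell 34 did (61.8% and 11.8%).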

How the data were processed

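RNA of the samples described above was hybridised to Affymetrix arrays, 1 per sample. The authors deposited log2 values summarised by RMA with Affymetrix Expression Console 3.1 per the submitters' processing notes. RMA corrects background, scales all arrays to the same distribution and summarises the probes of a transcript cluster, so it hides shifts shared by all genes and compresses small signals. Sample descriptions name a Human Gene ST array, the series text an exon array, and the identifiers fit the former. A genome build is not given in the sources used here. Symbols came from the platform table: 19460 clusters carried 1 symbol, 1754 several and 12083 none, and 703 named clusters had values identical to another. No filter on low values was used. The number of arrays limits the precision.

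Clusters were tested with limma 3.58.1 (R 4.3.3; 1 mean per group over all 18 arrays, 12 residual and 6.5 prior degrees of freedom, prior SD 0.124). Tests were two-sided, with p-values adjusted by the Benjamini-Hochberg method over 21214 clusters at 0.05. Each SE comes from this fit, so it reflects the spread of all groups and not only of the arrays compared. The fit was tested on simulated data. Genes in 38 lists are counted with 1 cluster each, the brightest (18417 genes). RHOXF1 was always named. Also named were the 12 largest rises and falls that passed with separated arrays, the 3 genes with the smallest p in each direction of the differences from control and RHOXF2 cells, and up to 4 members per list with the smallest p. Members and lists were chosen with earlier results of these data known, and the matrix list was added after seeing the values. Promoters (250 bases before each start) came from the RefSeq table for GRCh38.p14, which matched 14239 measured genes. Alternatives were only the compared arrays, an intensity trend or robust settings in eBayes (limma), repeated quantile or cyclic loess scaling, median centring, clusters above the median level, 1 cluster a gene, the replicate number as a block, a random block (statmod 1.5.0), and leaving out each array.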

Additional observations from a re-analysis of the deposited data

How the results depend on the processing

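The count of clusters that changed between the times in RHOXF1 cells (937) was 1802 with only the compared arrays in the fit, of which 891 were among the 937, and ran from 13 to 722 when 1 RHOXF1 array was left out. Under the other settings it stayed within 1.5 times, from 914 to 1234. The count for the difference from control cells (0) ran from 0 to 1 without single arrays. The count for the difference from RHOXF2 cells (0) was 1, ANKRD1, with 1 cluster a gene, with the replicate block and with the random block, and ran from 0 to 1 without single arrays. Same-numbered arrays of the 24 h and 48 h groups correlated at -0.03, 0.075 and -0.14 in their deviations. That shows no pairing over all clusters but cannot exclude one. Within a time, same-numbered arrays of different vectors were alike for some genes. At 24 h ARRDC4 read 9.00, 9.09 and 9.14 on the first RHOXF1, RHOXF2 and control arrays, and 8.54 to 8.63 on the others. The reported fit has no term for the number. With the replicate block 1131 clusters passed, 906 of them among the 937. Signs turned for values near 0 only: RHOXF1 was -0.04 with median centring and -0.03 without the first 24 h array. ADAM20P1 was -0.04 with median centring, -0.01 without the second 24 h array and -0.10 without the first 48 h array, and reached 0.10 without the third 48 h array. CFAP144P1 (-0.03) was 0.06 without the first 24 h array and 0.05 without the third 48 h array. The cause was not tested.

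Of the 84 genes that the naming rule took and that passed, which leaves out those named only for being called in every such fit, 2 (CLSPN and YPEL5) were still called without the third 24 h array, 17 without the third 48 h array, 28 without the second 24 h array, 29 without the first 48 h array, 59 without the second 48 h array and 65 without the first 24 h array. Median centring and quantile scaling each lost 7 of them, and cyclic loess 5. With 3 arrays a time, differences under about 0.25 on the log2 scale were not called, so small changes cannot be told from no change. No setting separates time from array series.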
